A study of Mus musculus with 6 samples.

Results

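The genes described here are the matrix metalloproteinases (MMPs), the ADAMTS proteases and the tissue inhibitors of metalloproteinases (TIMPs) of mouse liver. They were taken from the gene table by symbol, as Mmp, Adamts or Timp followed by a number, which gave 38 of 30029 genes: 18 Mmp, 16 Adamts and 4 Timp genes. They were compared between 3 liver libraries labelled Atp7b knockout (KO) and 3 labelled wild type (WT). Mice of both labels were on a high-fat diet for 24 weeks, and the sources name neither the altered allele nor the strain, age or sex. Atp7b encodes the copper-transporting ATPase of hepatocytes. Polyadenylated RNA was sequenced from strand-marked (dUTP) libraries, and the deposited table holds counts per gene.

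MMPs are secreted or membrane-bound zinc endopeptidases that cut collagens and other matrix proteins. ADAMTS proteases are secreted relatives with thrombospondin repeats that cut proteoglycans, procollagens and von Willebrand factor. Both are made as precursors. TIMPs block most MMPs, and Timp3 also blocks several ADAMTS proteases. In the liver, TIMPs and several MMPs are known as products of stellate cells, macrophages and endothelial cells, and the balance between enzymes and inhibitors is a long-standing subject of fibrosis research. Transcript levels measure neither the amount of protein nor its activation.

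Total counts ran from 68117601 to 70965999 in the labelled KO libraries and from 57886524 to 67280139 in the labelled WT libraries. Levels are CPM, a gene's counts relative to the library total after edgeR's TMM scaling, and a floor of 3 counts was 0.0339 to 0.0578 CPM. The targeted gene Atp7b had 1987, 1908 and 2087 counts in the libraries labelled KO, against 909, 1192 and 2051 in those labelled WT. It was not lower under the KO label (edgeR adjusted p = 0.939), so every direction below compares libraries by their labels. Hepatocyte markers were abundant in all 6 libraries, with a summed level of 62907 to 79695 CPM in labelled KO libraries and 62639 to 70751 CPM in labelled WT libraries. Whether each library is its own animal is not stated, and p-values therefore measure only the spread among these libraries, part of which may be technical. In bulk liver RNA, more cells of a type and more RNA per cell cannot be told apart.

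Of the 38 genes, 30 had enough counts to be tested, and 3 were called at an adjusted p under 0.05 with edgeR's quasi-likelihood test. Mmp13 and Adamts2 were higher and Mmp19 was lower in the labelled KO livers. Over all 17606 tested genes 1.44% were called, 0.932% higher and 0.506% lower. None of the 3 tested Timp genes was called by edgeR, although 2 of them had an unadjusted p under 0.05 and DESeq2 called those 2. Of the 30 tested members, 28 had a positive log2 fold change of labelled KO over labelled WT, where 48.0% of all tested genes did. The sign of Mmp9, Adamts7 and Mmp28 changed when some single libraries were left out, and that of Mmp9 also with total-count scaling. Of the 30, 18 had an unadjusted p under 0.05 (17 higher and 1 lower), where 19.7% of all tested genes did (2121 genes higher and 1356 lower). Their median log2 fold change was 1.17, against -0.02 over all tested genes. In 17 of the 30 every labelled KO library lay above every labelled WT library, where 13.7% of all tested genes did so. Mmp8, Mmp13, Mmp25, Mmp28, Adamts4 and Timp1 reached the filter level in all 3 labelled KO libraries but not in all labelled WT libraries, so a higher level there was built into their selection, and Mmp7 reached it in 2 libraries of each group. Of the 23 tested members that passed it in every labelled WT library too, 14 had every labelled KO library above every labelled WT library. The number of members called was 11 without labelled KO replicate 2, 1 without labelled KO replicate 3, 4 without labelled WT replicate 1 and 0 without labelled KO replicate 1, labelled WT replicate 2 or labelled WT replicate 3. Over all tested genes 4.96% were called without labelled KO replicate 2, 0.184% without labelled KO replicate 3 and 2.07% without labelled WT replicate 1. The share was 0.0607% without labelled KO replicate 1, 0% without labelled WT replicate 2 and 0.0217% without labelled WT replicate 3. DESeq2 called 13 members, where it called 8.97% of all genes it gave an adjusted p, and limma voom called none, where it called 0.392%.

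**Figure D1:**
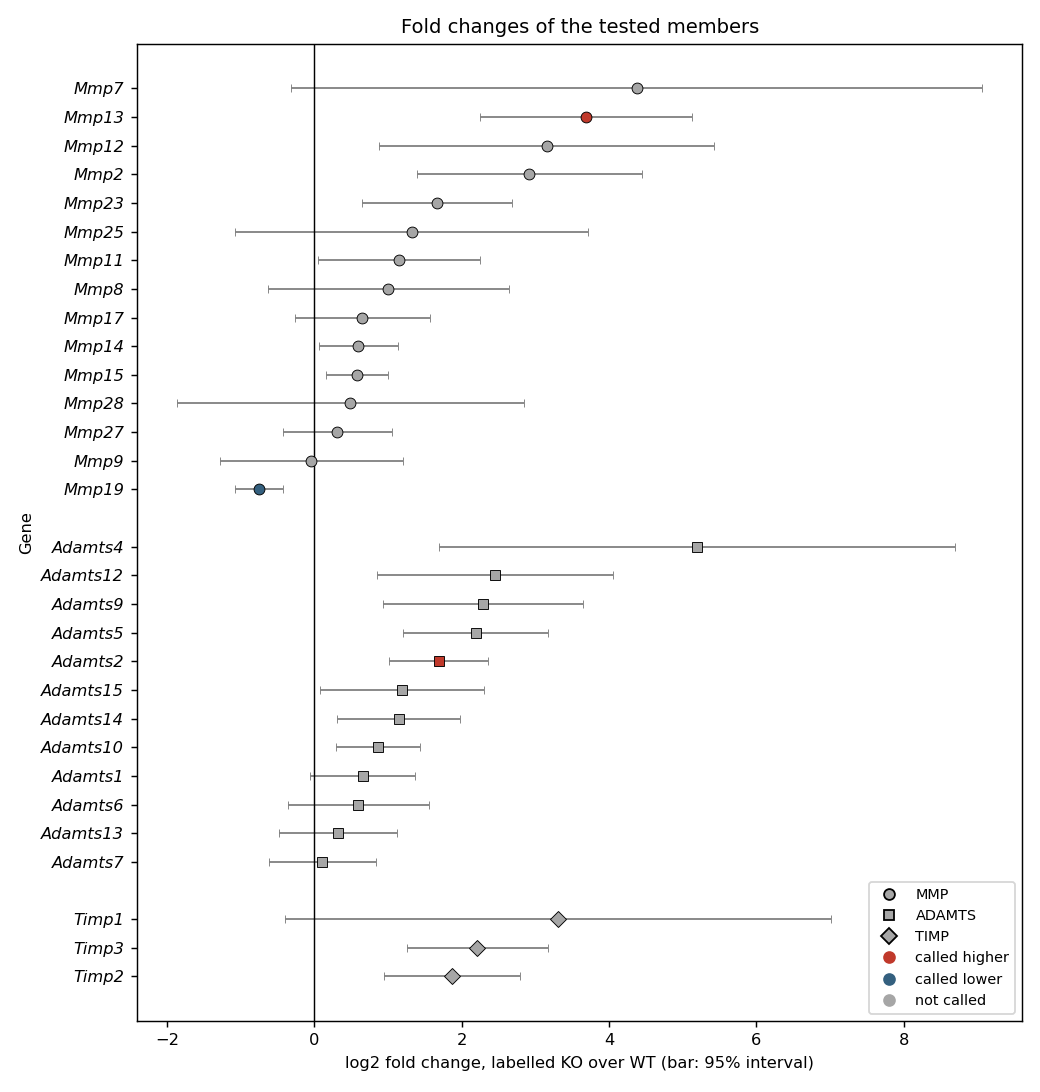
Log2 fold change of labelled KO over labelled WT on the x axis for each tested gene on the y axis, grouped as MMP (circles), ADAMTS (squares) and TIMP (diamonds), with 95% intervals from edgeR's quasi-likelihood fit on 3 libraries per group. Of 30 genes, 28 lie right of 0, and the coloured points mark the 2 called higher (Mmp13 and Adamts2) and the 1 called lower (Mmp19).

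Collagenases cut the triple helix of fibrillar collagens, and Mmp13 is the main one of rodents. Mmp13 (ENSMUSG00000050578, GRCm39 chromosome 9, 7272514 to 7283331) had 3.46, 2.75 and 2.42 CPM in labelled KO livers, against 0.462, 0.075 and 0.132 CPM in labelled WT livers. The groups did not overlap, and replicate 1 was the highest in each. Mmp13 rose 12.9-fold (log2 fold change 3.69 ± 0.63 SE, edgeR adjusted p = 0.0458). The labelled WT values rest on 24, 4 and 8 counts, against 265, 194 and 214 counts in the labelled KO libraries. Without labelled WT replicate 1 its log2 fold change was 4.76 (adjusted p = 0.0191). The call was lost without labelled KO replicate 1 or 3 and without labelled WT replicate 2 or 3 (adjusted p = 0.146, 0.0681, 0.18 and 0.147). In that order these fits called 11, 33, 0 and 4 of all tested genes. The log2 fold change of Mmp13 ran from 3.28 to 3.80 in them. Mmp8, the neutrophil collagenase, had 49, 32 and 23 counts in labelled KO libraries and 4, 21 and 12 counts in labelled WT libraries, and it was not called (adjusted p = 0.495). Neutrophil markers had a median log2 fold change of -1.01, with none of 8 tested called by edgeR or DESeq2. An unadjusted p under 0.05 was reached by 1 of these 8, on the higher side, where 19.7% of all tested genes reached it. Csf3r had 6.06 to 8.29 CPM in labelled KO livers and 4.03 to 4.91 CPM in labelled WT livers, and the other markers summed to 3.13 to 4.19 CPM in labelled KO livers and 4.32 to 7.61 CPM in labelled WT livers. Their part in the level of Mmp8 was not tested.

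Mmp12, the macrophage elastase, had 55.2, 49.3 and 73.7 CPM in labelled KO livers, against 16.3, 1.82 and 1.97 CPM in labelled WT livers (chromosome 9, 7344381 to 7369499). Labelled WT replicate 1 stood well above the other labelled WT libraries but below all labelled KO libraries. With all 6 libraries the log2 fold change of Mmp12 was 3.15 ± 0.93 (SE) and did not pass edgeR's test (adjusted p = 0.141). Without labelled WT replicate 1 it was 4.97 and passed (adjusted p = 9.48e-04). Recruited macrophage markers summed to 529, 306 and 1067 CPM in labelled KO replicates 1 to 3, against 207, 146 and 117 CPM in labelled WT replicates 1 to 3. Of those 11 markers, 1 was called higher (Cd68), none was called lower (all 11 had an unadjusted p under 0.05, on the higher side), and none was at 0 in all libraries of a group. Over all tested genes 1.44% were called and 19.7% had an unadjusted p under 0.05. Spp1 stands in the macrophage list and in that of bile duct cells. Without Spp1 the macrophage sums were 297, 232 and 486 CPM in labelled KO replicates 1 to 3, against 104, 56.0 and 42.1 CPM in labelled WT replicates 1 to 3. The macrophage marker sum and Mmp12 were lowest in replicate 2 and highest in replicate 3 of the labelled KO libraries, and highest in replicate 1 of the labelled WT libraries. The part of macrophage number in the level of Mmp12 was not tested.

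Mmp13 and Mmp12 belong to a row of 6 Mmp genes within 427 kb of chromosome 9 (7272514 to 7699587), with Mmp3, Mmp8, Mmp27 and Mmp7. Of these, 5 were tested, 1 was called, and log2 fold changes ran from 0.31 for Mmp27 to 4.38 for Mmp7. Promoter windows of 250 bases before to 50 after the start were given by RefSeq (GRCm38.p6) for 25 of the 38 genes. They were searched on both strands for TGANTCA, the site bound by AP-1 factors, for AGGAAG, which ETS factors bind, and for TATAAA. The AP-1 site TGANTCA occurred in the windows of 4 of the 25 genes, Mmp12, Mmp13, Mmp3 and Mmp7, all in this row, and in 8.97% of all genes with a window. Mmp13 held it 35 bases and Mmp12 44 bases before a listed start (Mmp12 has 2 windows), and Mmp8 and Mmp27 did not hold it. The Mmp13 window (chr9:7272264-7272563, plus strand) and the Mmp12 window that holds the match (chr9:7347124-7347423, plus strand) are shown because these are the genes of the row whose groups did not overlap. Capitals mark the matches to the 3 motifs, which do not overlap in these windows.
Mmp13: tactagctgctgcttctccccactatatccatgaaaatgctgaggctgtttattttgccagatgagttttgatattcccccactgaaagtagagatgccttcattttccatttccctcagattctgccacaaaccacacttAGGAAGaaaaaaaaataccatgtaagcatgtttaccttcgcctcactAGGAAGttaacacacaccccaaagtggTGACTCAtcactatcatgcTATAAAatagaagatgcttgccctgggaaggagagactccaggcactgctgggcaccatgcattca
Mmp12: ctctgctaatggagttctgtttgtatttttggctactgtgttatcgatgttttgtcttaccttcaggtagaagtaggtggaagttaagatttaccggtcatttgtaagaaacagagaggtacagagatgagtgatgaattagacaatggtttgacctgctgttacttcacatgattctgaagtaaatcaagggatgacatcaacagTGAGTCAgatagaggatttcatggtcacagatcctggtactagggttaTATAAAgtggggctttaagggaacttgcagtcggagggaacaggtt
A match is a description of these letters and shows no binding. Mmp7, matrilysin, which is made by epithelial cells, had 158, 10 and 1815 counts in labelled KO libraries and 38, 20 and 0 counts in labelled WT libraries. Its groups overlapped and labelled KO replicate 3 held most of its counts (log2 fold change 4.38 ± 1.92 SE, adjusted p = 0.285, and 1.59 without that library). Bile duct markers summed to 314, 145 and 722 CPM in labelled KO replicates 1 to 3, against 151, 142 and 125 CPM in labelled WT replicates 1 to 3, and were highest in the same library. Spp1 alone had 232, 74.5 and 581 CPM of these in labelled KO replicates 1 to 3, against 103, 90.4 and 74.8 CPM in labelled WT replicates 1 to 3. Without Spp1 the sums were 82.0, 70.6 and 142 CPM in labelled KO replicates 1 to 3, against 47.9, 51.9 and 50.2 CPM in labelled WT replicates 1 to 3. Of those 7 tested markers, 1 was called higher by edgeR (Krt23), and none was at 0 in all libraries of a group. An unadjusted p under 0.05 was reached by 5 of them, all on the higher side, and DESeq2 called 4. Over all tested genes edgeR called 1.44% and 19.7% had an unadjusted p under 0.05. DESeq2 called 8.97% of all genes it gave an adjusted p. That bile duct cells carried the Mmp7 reads was not tested.

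The gelatinases cut denatured collagen and type IV collagen. Mmp2 had 13.7, 4.52 and 24.8 CPM in labelled KO livers, against 1.12, 2.48 and 2.10 CPM in labelled WT livers. The groups did not overlap, labelled KO replicate 2 was much lower than the other labelled KO libraries, and the test was not passed (log2 fold change 2.92 ± 0.64 SE, adjusted p = 0.0709). Without labelled KO replicate 3 the log2 fold change of Mmp2 was 2.26 (adjusted p = 0.101), and without labelled KO replicate 2 it was 3.37 and passed (adjusted p = 0.0152). Mmp9, the gelatinase of leukocytes, had 1.61, 0.482 and 0.655 CPM in labelled KO livers, against 0.809, 0.713 and 1.29 CPM in labelled WT livers, with overlapping groups and a log2 fold change of -0.04 (95% interval -1.27 to 1.20).

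Mmp19 encodes an MMP of wide tissue distribution, and it was the member with the highest level per length in labelled WT livers. It had 51.3, 51.5 and 44.3 CPM in labelled KO livers, against 69.5, 89.3 and 89.2 CPM in labelled WT livers (ENSMUSG00000025355, chromosome 10, 128626779 to 128636693). Every labelled KO library lay below every labelled WT library, and Mmp19 fell 1.69-fold (log2 fold change -0.75 ± 0.14 SE, adjusted p = 0.0498). It was the only one of the 30 tested members with an unadjusted p under 0.05 on the lower side, where 7.70% of all tested genes were. The call sat at the threshold. It was lost with DESeq2 size factors (adjusted p = 0.0506), with a filter of 10 counts in 3 libraries (0.0501), with total-count scaling (0.0966) and without any library other than labelled WT replicate 1 (0.0502 to 0.196). With 1 library left out the log2 fold change of Mmp19 ran from -0.87 to -0.68, and from 0 to 912 of all tested genes were called.

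Membrane-type MMPs are anchored in the cell surface, and Mmp14 activates the Mmp2 precursor together with Timp2. Mmp14 had 25.7, 17.5 and 34.4 CPM in labelled KO livers, against 18.7, 17.1 and 15.3 CPM in labelled WT livers, so the groups overlapped (log2 fold change 0.60 ± 0.23 SE, adjusted p = 0.202). Mmp15 had 60.7, 47.3 and 64.2 CPM in labelled KO livers, against 30.3, 39.4 and 46.0 CPM in labelled WT livers. Its groups were apart by a small margin (log2 fold change 0.57 ± 0.18 SE, adjusted p = 0.136). Mmp17 had at most 1.02 CPM and Mmp25 at most 0.305 CPM in a library, and neither was called. Mmp16 had 4 counts in a single labelled WT library and 0 in all labelled KO libraries, and Mmp24 had at most 57 counts, and neither was tested. Reads of Mmp24 could also be shared with the overlapping antisense gene Mmp24os1, since the sources do not say whether counting used the strand.

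The remaining MMPs are Mmp11, a stromelysin of stromal cells, Mmp3, another stromelysin, and the less studied Mmp23, Mmp27 and Mmp28. Mmp23 had 3.49, 2.17 and 6.72 CPM in labelled KO livers, against 1.10, 1.69 and 1.12 CPM in labelled WT livers, without overlap (log2 fold change 1.66 ± 0.44 SE, adjusted p = 0.0892). Mmp11 had 0.823, 0.922 and 1.87 CPM in labelled KO livers, against 0.732, 0.469 and 0.430 CPM in labelled WT livers. Its log2 fold change was 1.15 ± 0.48 (SE, adjusted p = 0.236), and it overlaps Chchd10 on the opposite strand, which averaged 356 CPM in labelled KO and 380 CPM in labelled WT livers. Mmp27 had a log2 fold change of 0.31 and Mmp28 of 0.49, with intervals on both sides of 0. Mmp3 had at most 14 counts in a library and was not tested.

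**Figure D2:**
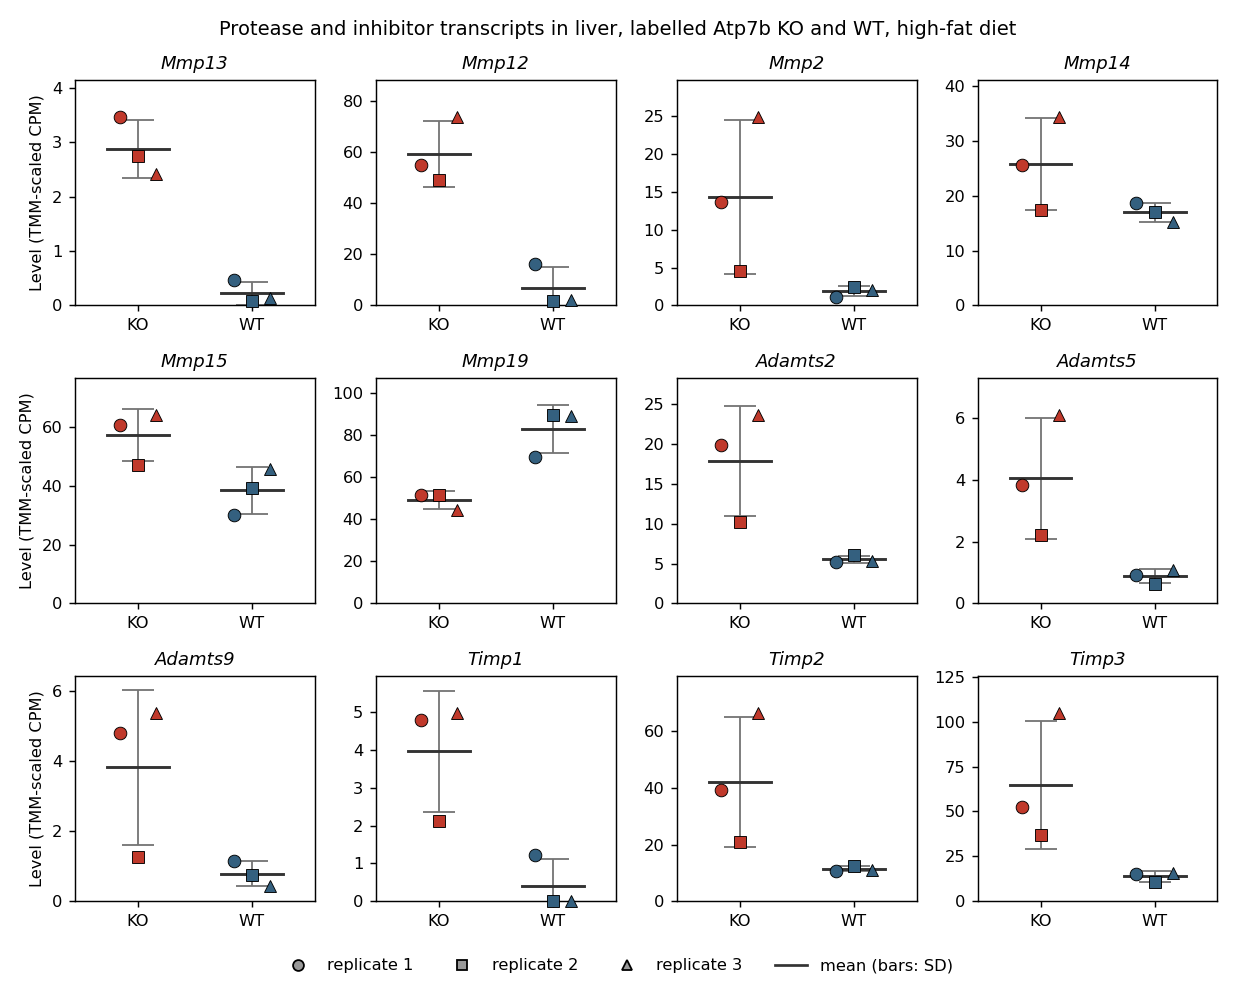
Level in TMM-scaled CPM on the y axis of 12 genes in the 3 labelled KO (left, red) and 3 labelled WT (right, blue) libraries, with marker shape giving the replicate, lines the group mean and bars the SD. Mmp19 is the panel with labelled KO libraries below labelled WT libraries, Mmp14 overlaps, and in most other panels labelled KO replicate 2 is the lowest of its group.

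Among the ADAMTS genes, those that trim procollagen held the called member. Adamts2, the main procollagen I N-proteinase, had 19.8, 10.2 and 23.6 CPM in labelled KO livers, against 5.18, 6.06 and 5.37 CPM in labelled WT livers (ENSMUSG00000036545, chromosome 11, 50492911 to 50698400). No labelled WT library reached the lowest labelled KO library, and Adamts2 rose 3.23-fold (log2 fold change 1.69 ± 0.29 SE, adjusted p = 0.0464). With 1 library left out the call was kept without labelled KO replicate 2 (adjusted p = 0.0081) and lost in the other 5 cases (0.0717 to 0.181). In those 5 cases the log2 fold change of Adamts2 ran from 1.44 to 1.76, and from 0 to 382 of all tested genes were called. Adamts14, which trims the same substrates, had 2.23, 1.77 and 1.22 CPM in labelled KO livers, against 0.829, 0.732 and 0.794 CPM in labelled WT livers (log2 fold change 1.15 ± 0.36 SE, adjusted p = 0.134). Adamts3 had at most 51 counts and was not tested. The Adamts2 window (chr11:50601835-50602134, plus strand, GRCm38.p6) is shown beside those of the Mmp genes because it held none of the 3 motifs, and its bases were 77.3% G or C, against 43.7% in the Mmp13 window.
Adamts2: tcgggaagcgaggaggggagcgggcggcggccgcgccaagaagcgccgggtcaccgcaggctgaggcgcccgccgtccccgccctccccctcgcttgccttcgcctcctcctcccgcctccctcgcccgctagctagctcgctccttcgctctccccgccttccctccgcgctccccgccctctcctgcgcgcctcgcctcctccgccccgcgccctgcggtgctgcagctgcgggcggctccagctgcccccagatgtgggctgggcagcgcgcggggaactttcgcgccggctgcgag

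The proteoglycan-cleaving group cuts aggrecan and versican. Adamts5 had 3.85, 2.21 and 6.10 CPM in labelled KO livers, against 0.925, 0.638 and 1.09 CPM in labelled WT livers. The groups were well apart, with a log2 fold change of 2.19 ± 0.43 (SE), just outside the threshold (adjusted p = 0.0511). Without labelled KO replicate 2 the test was passed by Adamts5 (adjusted p = 0.0213), Adamts9 (0.0226), Adamts10 (0.0284), Mmp14 (0.0386) and Mmp23 (0.0354). Adamts9 had 4.82, 1.28 and 5.37 CPM in labelled KO livers, against 1.16, 0.751 and 0.446 CPM in labelled WT livers. Its lowest labelled KO library was close to the highest labelled WT library (log2 fold change 2.29 ± 0.59 SE, adjusted p = 0.0854). Adamts15 had 3.58, 1.49 and 4.35 CPM in labelled KO livers, against 1.62, 0.732 and 1.77 CPM in labelled WT livers, with overlap (log2 fold change 1.19 ± 0.48 SE, adjusted p = 0.225). Adamts1, which lies beside Adamts5 on chromosome 16, had 15.5, 8.62 and 7.72 CPM in labelled KO livers, against 6.26, 5.22 and 8.68 CPM in labelled WT livers, also with overlap (adjusted p = 0.292). Adamts4 had 185, 13 and 25 counts in labelled KO libraries, against 0, 4 and 0 counts in labelled WT libraries, so its fitted fold rests on almost no labelled WT counts (adjusted p = 0.114). Adamts8 had 5, 0 and 16 counts in labelled KO libraries and 0 in all labelled WT libraries. Its groups overlapped at 0 and it was not tested. The labelled KO mean was 1.5 times the level of 3 counts per labelled WT library.

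The other ADAMTS genes covered a wide span of fold changes. Adamts12, which cuts cartilage oligomeric matrix protein, had 2.56, 0.397 and 1.39 CPM in labelled KO livers, against 0.308, 0.319 and 0.165 CPM in labelled WT livers. The groups were apart, but labelled KO replicate 2 was close to the labelled WT libraries (log2 fold change 2.45 ± 0.70 SE, adjusted p = 0.105). Without labelled KO replicate 1 the log2 fold change of Adamts12 was 1.76 (adjusted p = 0.314), and without labelled KO replicate 2 it was 2.93 and passed (adjusted p = 0.0284). Adamts7, with the same substrate, had 6.11, 6.57 and 11.3 CPM in labelled KO livers, against 8.57, 4.84 and 8.81 CPM in labelled WT livers, a log2 fold change of 0.11 (95% interval -0.62 to 0.84). Adamts10, an ADAMTS of the fibrillin microfibrils, had 18, 11.1 and 20.4 CPM in labelled KO livers, against 8.46, 10.9 and 7.64 CPM in labelled WT livers (log2 fold change 0.87 ± 0.25 SE, adjusted p = 0.105). Adamts13, the von Willebrand factor-cleaving protease that stellate cells make in the liver, had 7.51, 7.86 and 3.05 CPM in labelled KO livers, against 4.26, 5.26 and 5.21 CPM in labelled WT livers. Unlike most members it was lowest in labelled KO replicate 3, and its groups overlapped (log2 fold change 0.32 ± 0.35 SE, adjusted p = 0.682). Vwf, its substrate, had 10.4, 4.51 and 7.27 CPM in labelled KO livers, against 2.29, 3.25 and 2.96 CPM in labelled WT livers (adjusted p = 0.0676). Adamts6 had a log2 fold change of 0.60 with an interval on both sides of 0, and Adamts16 and Adamts17 had too few counts for a test, Adamts16 having 15, 0 and 183 counts in labelled KO libraries and 8, 5 and 0 counts in labelled WT libraries.

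The inhibitors block most MMPs, and Timp3 also blocks several ADAMTS and ADAM proteases. Timp3 (ENSMUSG00000020044, chromosome 10, 86136236 to 86185370) had 52.7, 36.8 and 105 CPM in labelled KO livers, against 15.5, 10.5 and 15.8 CPM in labelled WT livers. The groups did not overlap, the log2 fold change was 2.22 ± 0.40 (SE, a 4.64-fold difference), and the adjusted p of 0.0519 missed the threshold. Timp2 (ENSMUSG00000017466, chromosome 11, 118191887 to 118246566) had 39.2, 20.9 and 66.4 CPM in labelled KO livers, against 10.9, 12.5 and 11.2 CPM in labelled WT livers. It had a log2 fold change of 1.87 ± 0.39 (SE, adjusted p = 0.0623), again with labelled KO replicate 2 lowest and replicate 3 highest. Both were called without labelled KO replicate 2 (adjusted p = 0.0177 for Timp3 and 0.0129 for Timp2), and Timp3 also without labelled KO replicate 3 (0.044). Timp1, the inducible inhibitor used as a marker of fibrosis, had 367, 149 and 439 counts in labelled KO libraries, against 63, 0 and 0 counts in labelled WT libraries (ENSMUSG00000001131, chromosome X, 20736405 to 20740974). All labelled WT counts of Timp1 came from replicate 1. Its adjusted p was 0.305 with all libraries and 0.0191 without labelled WT replicate 1, when the other labelled WT libraries were both at 0. Timp4 had 8, 0 and 38 counts in labelled KO libraries and 0 in all labelled WT libraries. Its groups overlapped at 0 and it was not tested. The labelled KO mean was 3.26 times the level of 3 counts per labelled WT library.

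Timp1, Timp3 and Timp4 each lie inside a synapsin gene on the opposite strand, Syn1, Syn3 and Syn2. The host genes had 1.08 CPM (Syn1), 0.816 CPM (Syn3) and 0.143 CPM (Syn2) in labelled KO livers, against 0.982 CPM (Syn1), 0.790 CPM (Syn3) and 0.0257 CPM (Syn2) in labelled WT livers. Syn1 had a log2 fold change of 0.13 (edgeR adjusted p = 0.9) and Syn3 of 0.05 (edgeR adjusted p = 0.975), and Syn2 was not tested. The promoter windows of the 3 inhibitors that were tested are shown to set them beside those of Mmp13 and Mmp12 (GRCm38.p6, Timp1 chrX:20869916-20870215 and Timp3 chr10:86300162-86300461 on the plus strand, Timp2 chr11:118355362-118355661 on the minus strand). Capitals mark AGGAAG or its reverse complement, which 38.4% of all genes with a window held. No Timp window held TGANTCA or TATAAA.
Timp1: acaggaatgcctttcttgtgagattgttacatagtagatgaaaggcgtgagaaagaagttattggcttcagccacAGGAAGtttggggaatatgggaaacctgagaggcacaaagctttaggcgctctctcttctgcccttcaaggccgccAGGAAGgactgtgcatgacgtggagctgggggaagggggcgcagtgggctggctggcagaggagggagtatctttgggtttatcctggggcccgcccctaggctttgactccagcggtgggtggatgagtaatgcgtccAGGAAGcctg
Timp2: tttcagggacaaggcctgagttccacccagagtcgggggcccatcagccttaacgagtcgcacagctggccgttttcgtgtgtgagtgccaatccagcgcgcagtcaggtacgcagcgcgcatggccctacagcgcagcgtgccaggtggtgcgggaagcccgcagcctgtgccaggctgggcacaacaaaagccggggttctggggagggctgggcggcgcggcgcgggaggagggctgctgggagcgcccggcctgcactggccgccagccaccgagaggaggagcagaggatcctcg
Timp3: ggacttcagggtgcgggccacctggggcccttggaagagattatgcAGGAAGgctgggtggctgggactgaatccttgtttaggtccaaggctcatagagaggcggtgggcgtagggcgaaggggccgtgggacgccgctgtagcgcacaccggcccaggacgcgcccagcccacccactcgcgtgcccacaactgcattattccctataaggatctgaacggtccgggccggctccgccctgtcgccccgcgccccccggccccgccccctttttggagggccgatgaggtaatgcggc

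Enzymes and inhibitors were then compared within each library, as levels per kilobase of the longest transcript summed over a class. The 4 Timp genes summed to 27.2, 15.8 and 45.8 CPM per kb in labelled KO livers, against 7.58, 5.59 and 6.37 CPM per kb in labelled WT livers. The 18 Mmp genes summed to 60.5, 47.0 and 88.6 CPM per kb in labelled KO livers, against 40.0, 43.6 and 43.8 CPM per kb in labelled WT livers. For the 16 Adamts genes the sums were 16.3, 10.1 and 15.8 CPM per kb in labelled KO livers, against 7.50, 7.24 and 7.97 CPM per kb in labelled WT livers. All 3 sums were higher in every labelled KO library, and the inhibitor sum differed the most, with a mean log2 difference of 2.06, against 0.57 for Mmp and 0.86 for Adamts genes. The ratio of the summed Mmp and Adamts levels to the summed Timp level was therefore 2.83, 3.61 and 2.28 in labelled KO livers, against 6.27, 9.08 and 8.12 in labelled WT livers. It averaged 2.90 ± 0.667 in labelled KO and 7.82 ± 1.43 in labelled WT livers (SD, n = 3 each), with no overlap. Divided by the same Timp sum, 82.5% of all tested genes other than Timp were also lower in every labelled KO library. The lack of overlap is therefore not particular to the enzymes. The class sums and their ratio are descriptions of genes chosen with earlier results known, so no test was made on them. The ratio does not depend on how libraries are scaled. Inhibitors other than the Timp genes were not in it. Pzp, 1 of them, averaged 763 CPM per kb in labelled KO and 1296 CPM per kb in labelled WT livers (edgeR adjusted p = 0.163). Of 10 tested genes listed with them as other inhibitors and clearance receptors, 3 had an unadjusted p under 0.05 on the lower side. They were Lrp1, Tfpi2 and Pzp. The 1 on the higher side was Pcolce, which enhances procollagen C-proteinase and is not an inhibitor.

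**Figure D3:**
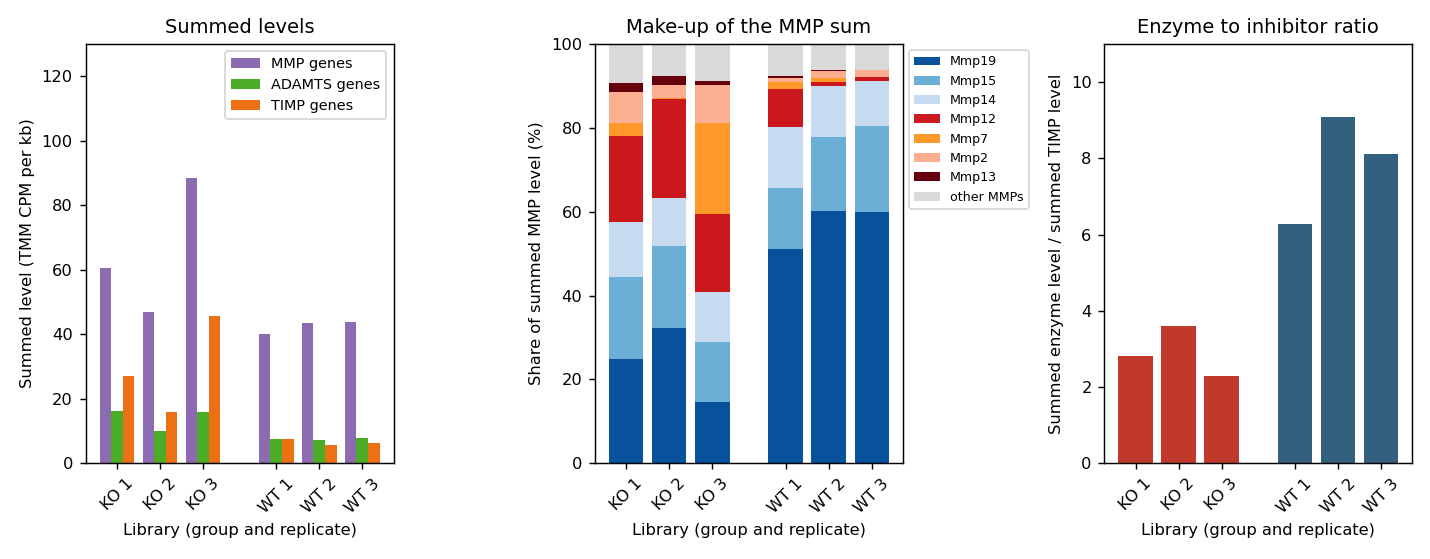
Bars for each library, labelled KO on the left: summed level per class in TMM CPM per kb (left panel), share of the MMP sum held by named genes in percent (middle) and ratio of summed enzyme to summed TIMP level (right). The ratio is 2.28 to 3.61 in labelled KO and 6.27 to 9.08 in labelled WT libraries, and Mmp19 (dark blue) holds the largest share of every labelled WT library.

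The make-up of the enzyme sum differed as well. Mmp19 held 25.0%, 32.2% and 14.7% of the Mmp sum in labelled KO livers, against 51.0%, 60.3% and 59.9% in labelled WT livers. Mmp12 held 20.4%, 23.4% and 18.6% in labelled KO livers, against 9.10%, 0.934% and 1.00% in labelled WT livers. Mmp7 held 21.7% in labelled KO replicate 3 and at most 3.20% in any other library. Mmp15 held 17.8% ± 3.17 in labelled KO and 17.6% ± 2.88 in labelled WT livers, and Mmp14 held 12.2% ± 0.824 in labelled KO and 12.5% ± 1.85 in labelled WT livers (SD, n = 3 each), so the shares of these membrane-type enzymes overlapped between groups. Without Mmp19 the ratio of Mmp to Timp sums averaged 1.78 ± 0.203 in labelled KO and 2.81 ± 0.258 in labelled WT livers (SD, n = 3 each), still without overlap. Over the same Timp sum 82.5% of all tested genes other than Timp were lower without overlap. The Mmp sum without Mmp12 averaged 52.1 ± 18.4 CPM per kb in labelled KO and 41.0 ± 3.94 CPM per kb in labelled WT livers (SD, n = 3 each), and there the groups overlapped. Within the inhibitor sum Timp3 held 41.0% to 49.2% in labelled KO livers and 39.8% to 52.5% in labelled WT livers.

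For single genes, 12 of 27 tested enzymes had a lower ratio to the summed inhibitors in every labelled KO library than in any labelled WT library, none had a higher one, and 15 overlapped. The background was 82.5% of all tested genes other than Timp on the lower side and 0.392% on the higher side, the inhibitor sum being the denominator for each. The 44.4% of enzymes on the lower side was below that background. Mmp8, Mmp13, Mmp25, Mmp28 and Adamts4, which did not reach the filter level in all labelled WT libraries, were among the 15, as was Mmp7. A higher labelled KO level was built into the selection of the first 5 of these. The comparison with the background is therefore not free of the filter. Mmp19, Mmp15 and Mmp14 were among the 12, with mean ratios of 0.599, 0.430 and 0.288 in labelled KO livers, against 3.83, 1.18 and 0.817 in labelled WT livers. Mmp13, Mmp12, Mmp2, Adamts2, Adamts5 and Adamts9 were among the 15 that overlapped. Adamts5 had ratios to the inhibitor sum of 0.0131, 0.0130 and 0.0124 in labelled KO livers, within the 0.0106 to 0.0159 of labelled WT livers. Mmp13 had 0.0477, 0.0651 and 0.0198 in labelled KO livers, against 0.0228, 0.00502 and 0.00776 in labelled WT livers.

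Libraries varied in the same direction for many members. Labelled KO replicate 2 was the lowest of its group for 20 of the 30 tested members, where it was so for 36.1% of all tested genes, and replicate 3 was the highest for 18, where it was so for 36.9%. Markers of stellate cells and fibroblasts summed to 739, 583 and 665 CPM in labelled KO replicates 1 to 3, against 271, 269 and 329 CPM in labelled WT replicates 1 to 3. Of these 14 markers, 5 were called higher by edgeR, none was called lower and none was at 0 in all libraries of a group. An unadjusted p under 0.05 was reached by 12, all on the higher side, DESeq2 called 11 and limma voom called 3. Over all tested genes edgeR called 1.44%, 19.7% had an unadjusted p under 0.05 and limma voom called 0.392%. DESeq2 called 8.97% of all genes it gave an adjusted p. Kupffer cell markers summed to 201 to 474 CPM in labelled KO livers and 328 to 587 CPM in labelled WT livers, and endothelial markers to 134 to 223 CPM in labelled KO livers and 146 to 182 CPM in labelled WT livers. Of 8 tested Kupffer cell markers, 2 had an unadjusted p under 0.05 (1 higher and 1 lower). Of 8 tested endothelial markers 3 did, all on the higher side, and edgeR called none of either list. The part of these cell types in the members' levels was not tested.

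**Figure D4:**
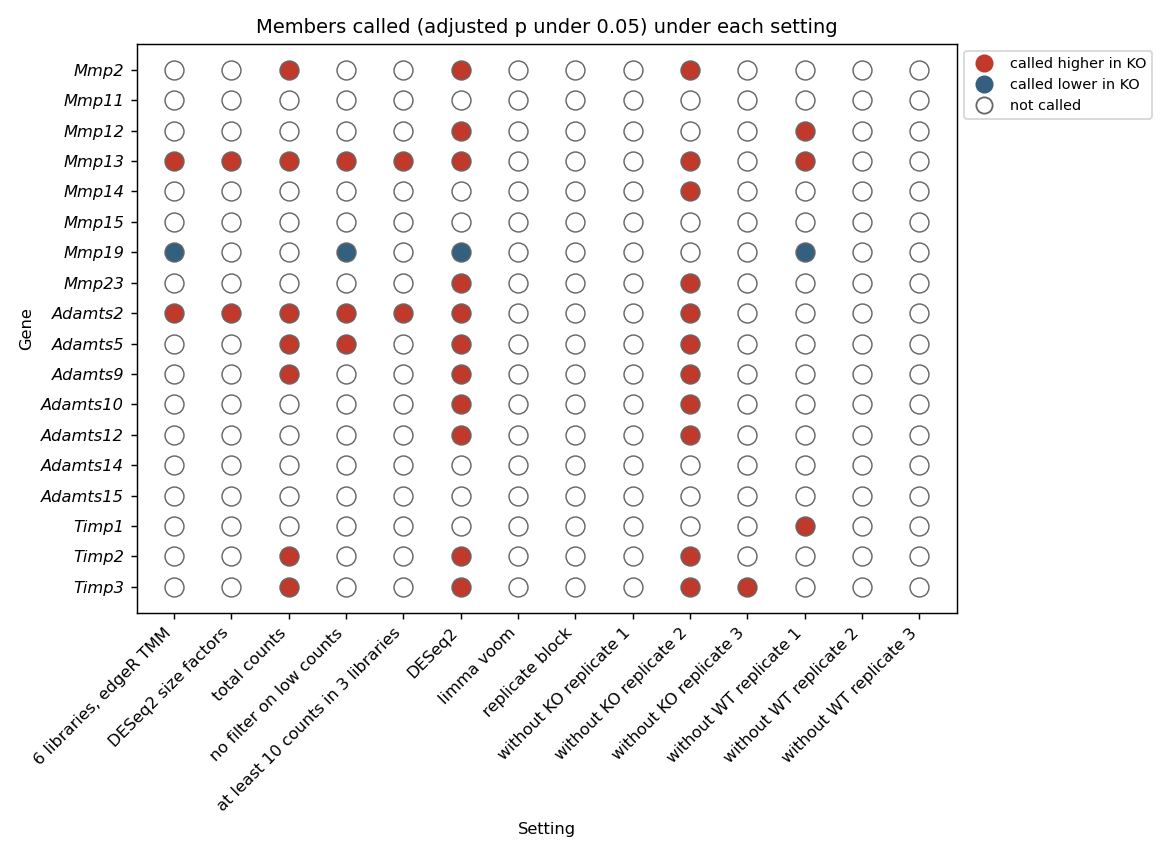
Calls at an adjusted p under 0.05 for 18 members (y axis) under the reported fit and 13 alternatives (x axis), with filled circles for genes called higher (red) or lower (blue) in labelled KO libraries and open circles for genes not called. DESeq2 called 13 members, of which Adamts4 is not plotted, leaving out labelled KO replicate 2 gave 11, and limma voom, the replicate block and leaving out labelled KO replicate 1, labelled WT replicate 2 or labelled WT replicate 3 gave 0. Over all tested genes 1.44% were called in the reported fit, 4.96% without labelled KO replicate 2 and at most 0.392% where 0 members were. DESeq2 called 8.97% of all genes it gave an adjusted p.

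Genes that activate, assist or meet these proteases were read from 7 further lists. Over all tested genes 1.44% were called by edgeR and 19.7% had an unadjusted p under 0.05. DESeq2 called 8.97% of all genes it gave an adjusted p. Of 12 tested genes of the plasmin system and proprotein activators, 2 were called higher by edgeR, 1 was called lower and 9 were not called (8 had an unadjusted p under 0.05, and DESeq2 called 6). Plau, urokinase, which generates the MMP activator plasmin, had 7.47, 5.60 and 13.2 CPM in labelled KO livers, against 2.0, 1.09 and 0.975 CPM in labelled WT livers (log2 fold change 2.69 ± 0.42 SE, adjusted p = 0.0447). Its receptor Plaur rose 5.36-fold (adjusted p = 0.0462), and Serpinf2, the plasmin inhibitor of hepatocytes, fell 1.90-fold, with 494, 497 and 564 CPM in labelled KO livers, against 893, 1028 and 1029 CPM in labelled WT livers (adjusted p = 0.0496). Among 11 tested ADAM proteases 1 was called by edgeR (4 had an unadjusted p under 0.05, and DESeq2 called 3), Adam15, a membrane-anchored disintegrin protease, which rose 3.06-fold (adjusted p = 0.0464). Of 14 tested substrates 2 were called higher by edgeR and 12 were not called, while 12 had an unadjusted p under 0.05 (11 higher and 1 lower) and DESeq2 called 12. The proteoglycan decorin (Dcn) rose 2.45-fold and fibrillin 1 (Fbn1) rose 4.09-fold (adjusted p = 0.038 and 0.0492). Dcn is also in the list of stellate cell markers, and Vwf in that of endothelial markers. The median log2 fold change of the substrates was 1.63. Plau, Plaur, Serpinf2, Adam15, Dcn, Fbn1 and Tgfb1 all lost the call without labelled KO replicate 1, labelled WT replicate 2 or labelled WT replicate 3. Without labelled KO replicate 3 all of them but Dcn lost it, and without labelled WT replicate 1 Serpinf2 and Fbn1 did. Of all tested genes 11 were called without labelled KO replicate 1, 0 without labelled WT replicate 2 and 4 without labelled WT replicate 3. Without labelled KO replicate 3 the number was 33, against 253 with all libraries.

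In the other 4 lists edgeR called 1 gene or none, where it called 1.44% of all tested genes and 19.7% had an unadjusted p under 0.05. Of 14 tested inducers and their transcription factors, 1 was called higher by edgeR (7 had an unadjusted p under 0.05, and DESeq2 called 6), Tgfb1, which encodes a cytokine that induces Timp1, at 1.98-fold (adjusted p = 0.0489). None of the 7 tested ADAMTS-like genes was called by edgeR (4 had an unadjusted p under 0.05, and DESeq2 called 3). Adamtsl2, a fibrillin-binding relative without protease activity, was closest, with 31.0, 15.6 and 56.9 CPM in labelled KO livers, against 7.73, 11.5 and 5.70 CPM in labelled WT livers (adjusted p = 0.0911). None of 7 tested astacin and lysyl oxidase enzymes was called by edgeR (5 had an unadjusted p under 0.05, and DESeq2 called 4). Bmp1, the procollagen C-proteinase, had 85.2, 94.2 and 69.2 CPM in labelled KO livers, against 125, 150 and 151 CPM in labelled WT livers, without overlap (log2 fold change -0.78 ± 0.16 SE, adjusted p = 0.0545). Loxl2, a lysyl oxidase that crosslinks collagen, had 11.2, 3.45 and 8.49 CPM in labelled KO livers, against 1.85, 2.31 and 1.80 CPM in labelled WT livers (adjusted p = 0.0563). None of 10 tested other inhibitors and clearance receptors was called by edgeR (4 had an unadjusted p under 0.05, and DESeq2 called 3), and their median log2 fold change was -0.46. Pcolce, which enhances procollagen C-proteinase, had 18.5, 11.7 and 20.9 CPM in labelled KO livers, against 8.57, 10.8 and 7.46 CPM in labelled WT livers (adjusted p = 0.084). Lrp1, the receptor that clears protease complexes, had 841, 586 and 498 CPM in labelled KO livers, against 935, 1128 and 1172 CPM in labelled WT livers (adjusted p = 0.135). The groups of Pcolce and of Lrp1 did not overlap, with labelled KO libraries above for Pcolce and below for Lrp1.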

How the data were processed

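Liver polyadenylated RNA of 3 libraries labelled Atp7b KO and 3 labelled WT, all on a high-fat diet, was analysed from the raw counts per gene that the authors deposited, with 1 column per library. Per the submitters' processing notes the build was GRCm39 and edgeR was used, while the aligner, the counting program and any use of strand are not given in the sources used here. Coordinates of genes are those of the deposited table. The value 4 occurred 6425 times in it, against 2823 for 3 and 1676 for 5, so low counts may not be numbers of independent reads. Intervals and floors cover counting error and modelled spread only.

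Genes were kept by filterByExpr (17606 of 30029), scaled by TMM and compared by the robust quasi-likelihood test of edgeR 4.0.16 under R 4.3.3 (alternatives used DESeq2 1.42.0 and limma 3.58.1), with Benjamini-Hochberg adjustment over all tested genes and a threshold of 0.05. SE is the size of the log2 fold change divided by the square root of F. Lengths were the longest GENCODE vM21 transcripts, matched by identifier for all 38 members. The members and lists were chosen with earlier results of these data known. Per-library values are given for members called, for those with an unadjusted p under 0.05 and a mean of at least 1 CPM in a group and for all Timp genes, and from each list for up to 3 called genes or, with none called, up to 2 with the smallest p. Other values were added after they were seen, as were the choice of the Mmp12 window and of Vwf. No pair of libraries in a group agreed within sampling noise. Alternatives were other scalings, filters and tests, the replicate block and leaving out each library.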

Additional observations from a re-analysis of the deposited data

How the results depend on the processing

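All genes called numbered 253, members called 3 and genes of the related and marker lists called 13 in the reported fit. In that order the counts were 1008, 7 and 32 with total counts, which moved the median log2 fold change of all genes from -0.02 to 0.31 and the share of calls that were higher from 64.8% to 93.4%. They were 1811, 13 and 66 with DESeq2, and 69, 0 and 5 with limma voom (15 members at an unadjusted p under 0.05). With DESeq2 size factors 2 members were called and with no filter 473 genes. With 1 library left out they ran from 0 to 912, 0 to 11 and 0 to 43. The lowest counts came without labelled WT replicate 2 (0, 0 and 0, with 16 members at an unadjusted p under 0.05) and the highest without labelled KO replicate 2. A filter of 10 counts in 3 libraries called 2 members.

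With the replicate number as a block 4 genes, 0 members (17 at an unadjusted p under 0.05) and 0 list genes were called. The labels give only the replicate number. Deviations of same-numbered libraries correlated at -0.00386, -0.0203 and -0.0457, which cannot decide whether the libraries were paired.

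Over the 30 tested members and 13 alternatives, 332 of 390 log2 fold changes kept their direction and their side of the threshold, 28 passed it newly, 23 lost it and 7 changed sign. The sign changes were in 3 genes that were not called. Mmp9 had 0.30 with total counts and ran from -0.72 to 0.30 with 1 library left out (above 0 without labelled KO replicate 2 or 3 or labelled WT replicate 3). With 1 library left out Adamts7 ran from -0.22 to 0.27 (below 0 without labelled KO replicate 3 or labelled WT replicate 2) and Mmp28 from -0.091 to 0.97 (below 0 without labelled WT replicate 2). For the 13 genes of other lists given with a test, 109 of 169 values stayed on their side, 16 passed the threshold newly, 44 lost it and 0 changed sign. The cause was not tested. The mean log2 difference of the enzyme to inhibitor ratio was -1.44, and -1.61 to -1.28 with 1 library left out. Mmp3, Mmp16, Mmp24, Adamts3, Adamts8, Adamts16, Adamts17 and Timp4 had too few counts for the test.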
